A study of Mus musculus with 26 samples.

Results

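The genes described are the members of the 4 mouse Hox clusters, taken as every gene symbol made of Hox, a cluster letter from a to d and a paralogue number. Reported are 38 such genes among the 54589 symbols of 3 RNA-seq tables. All 38 are listed in the table of 53978 genes from cells given dTAG13 and in the table of 50969 genes from cells overexpressing Tex10. Only 17 are listed in the table of 21275 genes from testis. On mm10, 10 of them lie in HoxA on chromosome 6 between 52162417 and 52260880, 10 in HoxB on chromosome 11 between 96194316 and 96368256, 9 in HoxC on chromosome 15 between 102921103 and 103036852, and 9 in HoxD on chromosome 2 between 74668310 and 74765142. Antisense genes and host transcripts of the clusters are not counted as members.

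The study asked what Tex10 does while primordial germ cell-like cells (PGCLCs) form in culture from epiblast-like cells (EpiLCs), and in the testis. In the dTAG13 experiment, 129Sv/J cells were sampled as untreated EpiLCs and, on day 2 and day 4 of PGCLC induction, with dTAG13 at 500 nM or with DMSO, the solvent control, and each of these 5 groups had 2 libraries. dTAG13 triggers the breakdown of a protein that carries its degron tag. How Tex10 was tagged, and in which of these cells, is not given in the sources used here. In the overexpression experiment, also in 129Sv/J cells and labelled untreated, a single line with the empty vector and 2 clones that overexpress Tex10 each gave 1 library per stage, the stages being EpiLCs, day 2, day 4 and day 6. The testis experiment compared 2 libraries of Tex10 conditional knockout (cKO) mice with 2 of wildtype mice, on C57BL/6N. The Cre driver, the age of the mice and the cells that carry the deletion are not given in the sources used here, and no label says whether same-group libraries came from separate cultures or animals. P-values therefore measure only the spread between these libraries, which may be technical.

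Libraries held 5055362 to 8564563 reads, and 1 read was worth 0.0996 to 0.187 units of the TMM-scaled CPM (read counts relative to library size) in which all values are given. Tex10 mRNA lay between 329.8 and 653.6 in the overexpression clones and between 144.6 and 213.5 in the vector line, and at 29.8 and 27.3 in cKO against 79.1 and 44.1 in wildtype testis. With dTAG13 it was 104.0 and 94.0 at day 2 against 106.0 and 112.9 with DMSO, and 76.8 and 72.8 at day 4 against 109.5 and 104.8. dTAG13 acts on the protein, so the mRNA is no check of that depletion. The cells were checked against germ cell genes: of a list of 9, from EpiLCs to day 2, 5 were called higher and 0 lower in the dTAG13 table, and 5 higher and 2 lower in the overexpression table. The 5 in each table included Prdm1, Prdm14 and Tfap2c, which together specify the germ line, and the 2 lower were Dazl and Ddx4, genes of later germ cells.

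Hox genes encode homeodomain transcription factors that give cells along the body axis their positional identity. Genes at the 3′ end of a cluster, with low paralogue numbers, are switched on first and in anterior tissue, and genes at the 5′ end later and more posteriorly, an order called collinearity. Before activation the clusters are held silent by Polycomb repressive complexes, and retinoic acid, Wnt and Fgf signals and the Cdx and Brachyury factors open them in the gastrulating epiblast and nascent mesoderm. Primordial germ cells arise next to that mesoderm but shut down its Hox programme, for which PRDM1 (BLIMP1) is known to be needed. Hox proteins bind DNA together with TALE homeodomain partners of the Pbx and Meis families.

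Promoter sequence is shown for 4 members whose values changed during induction or with Tex10, since these are the stretches nearest to the transcription start on which the values bear. They come from RefSeq on GRCm38.p6, the same assembly as mm10, and 22 of the 38 members matched an entry. Each is the 250 bases before the annotated start, 5′ to 3′ on the gene's strand, and capitals mark a match to a motif. They are Hoxb1 at chr11:96365508-96365757 on the + strand, Hoxa5 at chr6:52204588-52204837 on the − strand, Hoxd8 at chr2:74704365-74704614 on the + strand and Hoxd13 at chr2:74667975-74668224 on the + strand.
Hoxb1: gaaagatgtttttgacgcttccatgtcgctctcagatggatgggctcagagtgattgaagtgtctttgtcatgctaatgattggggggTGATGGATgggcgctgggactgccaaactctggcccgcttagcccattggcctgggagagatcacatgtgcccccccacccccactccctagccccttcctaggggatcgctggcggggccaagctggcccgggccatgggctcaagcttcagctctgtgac
Hoxa5: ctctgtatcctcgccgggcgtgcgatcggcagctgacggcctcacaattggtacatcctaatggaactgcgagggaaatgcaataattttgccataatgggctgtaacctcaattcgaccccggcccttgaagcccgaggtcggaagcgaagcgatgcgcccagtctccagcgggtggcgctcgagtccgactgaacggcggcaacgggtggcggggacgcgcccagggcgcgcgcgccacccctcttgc
Hoxd8: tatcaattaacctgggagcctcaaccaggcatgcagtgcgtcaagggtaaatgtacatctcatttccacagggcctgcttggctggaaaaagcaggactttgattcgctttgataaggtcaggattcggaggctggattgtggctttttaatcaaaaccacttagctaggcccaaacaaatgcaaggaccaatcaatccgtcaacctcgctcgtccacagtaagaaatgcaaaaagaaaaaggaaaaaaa
Hoxd13: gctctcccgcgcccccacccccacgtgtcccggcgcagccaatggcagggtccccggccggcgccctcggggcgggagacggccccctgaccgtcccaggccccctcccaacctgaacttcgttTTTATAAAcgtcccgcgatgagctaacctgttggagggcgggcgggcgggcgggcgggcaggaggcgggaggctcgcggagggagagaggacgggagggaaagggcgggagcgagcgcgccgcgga

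The motifs searched, on both strands, were TGATNNAT for Hox-Pbx, TTTATG for Cdx and TATAAA for the TATA box. None contains another, but matches of different motifs may share bases. The Hox-Pbx letters were in 4 of 24 windows of members (Hoxa2, Hoxb1, Hoxb8 and Hoxd11) and in 7.7% of all 32851 windows. The Hoxb1 match has 154 bases between its end and the start, and the Hoxd13 window holds TATA letters on both strands that overlap. The Cdx letters were in 5 of 24 windows against 10.8% of all, and the TATA letters in 4 of 24 against 12.4%. Windows of members had a median GC content of 58.6% against 52.4% over all windows, and a median ratio of observed to expected CpG of 0.72 against 0.37. Among the 4 shown, this CpG ratio was 1.11 for Hoxa5, 0.9 for Hoxd13, 0.49 for Hoxd8 and 0.32 for Hoxb1. A match is a description of the letters and not a binding site.

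Most Hox genes were barely read in the cells, as were most genes listed. The filter described next was passed by 16605 of all 53978 genes of the dTAG13 table and by 15255 of 50969 of the overexpression table. A gene entered the tests when its mean over the table was at least 1, which 9 of 38 members passed in the dTAG13 table (Hoxa3, Hoxa4, Hoxa5, Hoxa7, Hoxb9, Hoxc12, Hoxc13, Hoxd8 and Hoxd13). In the table of overexpressing cells, 10 of 38 passed, which were the same genes without Hoxd8 and with Hoxb1 and Hoxb2. By cluster these were 4 of 10 in HoxA in both tables, against 1 of 10 in HoxB and 2 of 9 in both HoxC and HoxD in the dTAG13 table. In the overexpression table they were 3 of 10 in HoxB, 2 of 9 in HoxC and 1 of 9 in HoxD. All members together took 231 to 464 reads in a library of the dTAG13 table and 111 to 388 in the overexpression table. A member that passes only through the group in which it is high had to differ, so it adds no support to a count of calls. The counts below describe the members read well enough and not the 38.

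Of the 29 members under the filter in the dTAG13 table, 7 never had more than 3 reads in a library. Hoxd4 had 0 reads in all 22 cell libraries and Hoxd3 in all 12 of the overexpression table. A count of 3 reads, the limit that a count of 0 allows, corresponds to 0.299 to 0.56 units, so lower levels could not be detected at this depth. Another 7 members reached 10 reads in at least 1 library of that table. Hoxc11 had the most: 25 and 16 reads with DMSO at day 4, and 1 to 9 reads in the other 8 libraries. Hoxa9 reached 16 reads, Hoxb2 and Hoxc4 15, Hoxa2 13, Hoxc9 12 and Hoxc6 11, each with 0 reads in at least 1 library.

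Among the overexpression libraries, 28 members were under the filter, of which 8 never passed 3 reads and 8 reached 10 reads. Hoxd11 had its highest count, 16 reads, in EpiLCs of the vector line, and 0 to 6 reads elsewhere. Hoxb5 had 11 and 7 reads in the vector line at day 2 and day 4 and at most 2 reads elsewhere. Hoxb13 reached 16 reads, Hoxb3 14, Hoxd9 13, Hoxc11 12, and Hoxa9 and Hoxa10 11. Without the filter, 7 calls of members under it appeared over 6 comparisons of the cells. The share of all genes called in those fits is not given here, so this count is no support. Hoxb2 was higher from EpiLC to day 2 with DMSO (a log2 fold change of 1.11, limma adjusted p = 0.0355). Hoxa11 was higher with dTAG13 at day 4, on 2 and 3 reads against 0 and 0. In the vector lines Hoxd10, with at most 8 reads in a library, and Hoxd11 were lower from EpiLC to day 2. Hoxa9 was higher from day 2 to day 4 and Hoxc11 from day 4 to day 6, and Hoxb5 was lower in the overexpression clones.

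**Figure D1:**
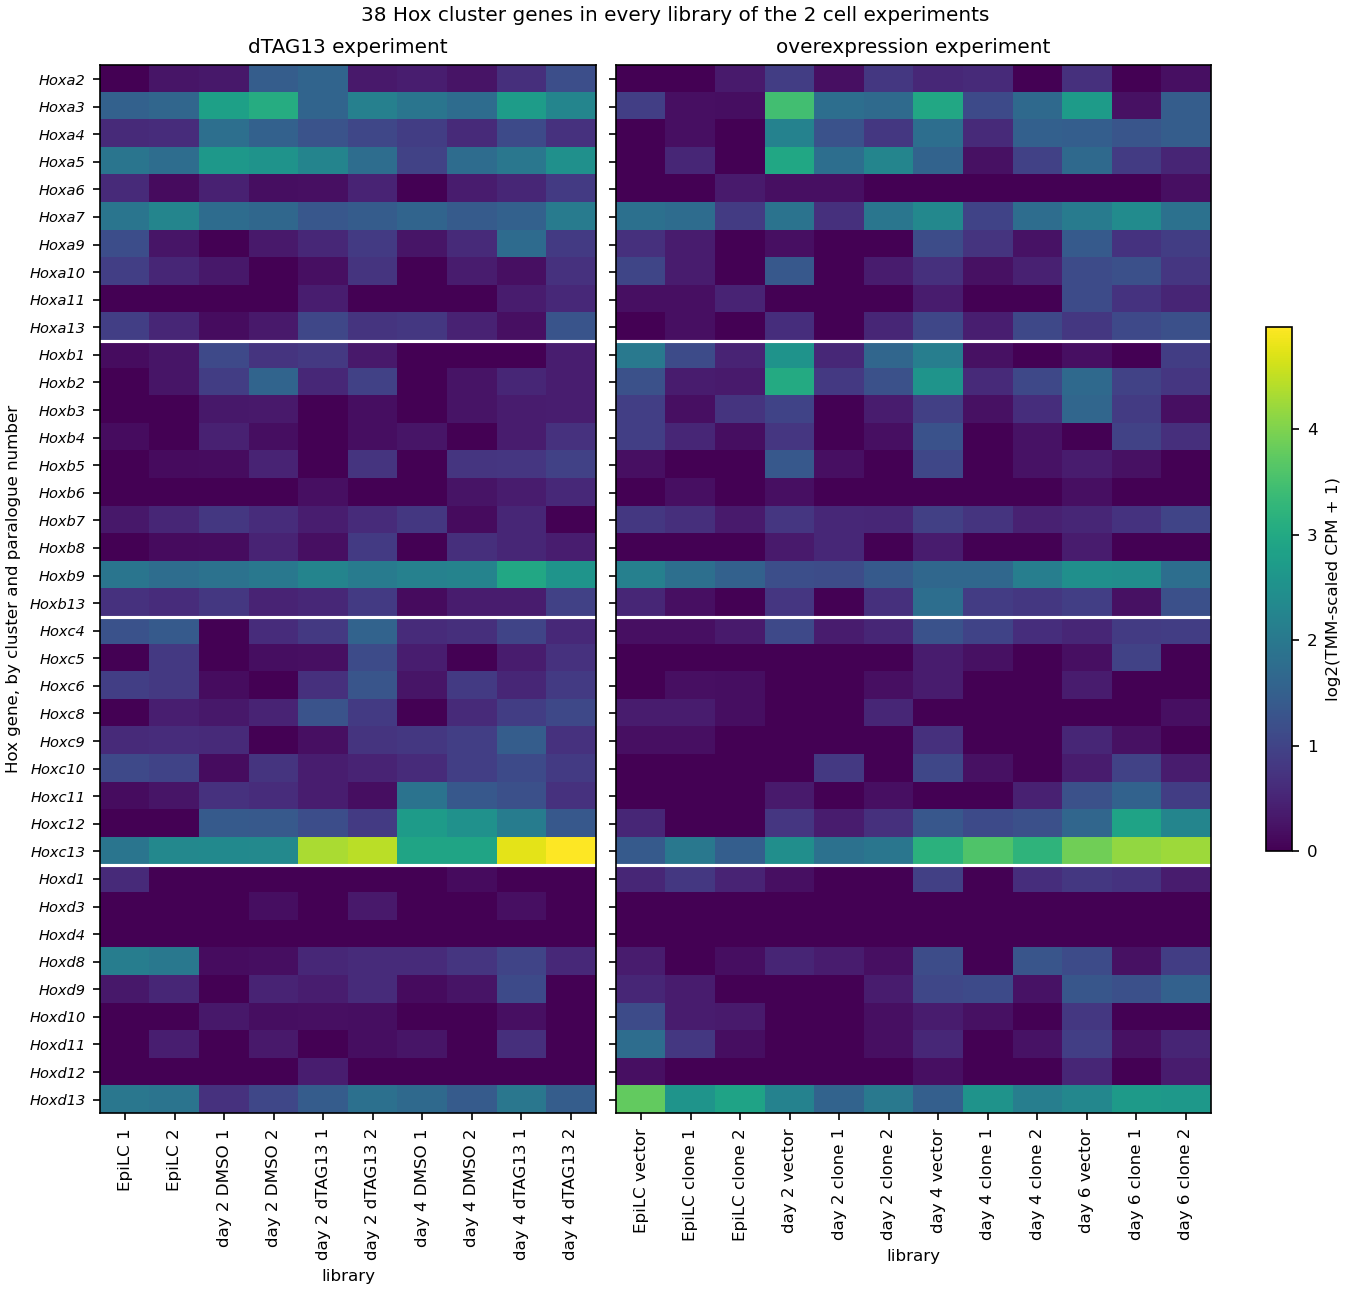
Log2(TMM-scaled CPM + 1) of each of the 38 members (rows, by cluster and paralogue number, white lines between clusters) in each library (columns) of the dTAG13 and overexpression experiments. Hoxc13 is among the brightest rows in both, and most rows of HoxB and HoxD stay near 0.

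Per kilobase of exon, the order of mean levels over the dTAG13 table was Hoxc13 at 5.05, then Hoxc12 at 1.98, Hoxa5 at 1.73 and Hoxb9 at 1.43. Hoxc13 is the most 5′ gene of HoxC and known for hair and nail keratins. In the overexpression table the order per kilobase was Hoxc13 at 3.12, Hoxd13 at 1.92, Hoxc12 at 1.48 and Hoxb9 at 1.01. Single libraries of the dTAG13 table ran per kilobase from 1.13 to 12.3 for Hoxc13, from 0 to 5.42 for Hoxc12, from 0.515 to 2.81 for Hoxa5 and from 0.947 to 2.68 for Hoxb9. These ranges overlap, but they pool the 5 groups of that experiment. All genes were read in the same libraries, so the overlap does not show whether neighbours in that order differ. Hoxb9, a thoracic-level gene, was not called in any comparison and lay between 2.44 and 6.89 in the dTAG13 table and between 1.23 and 4.52 in the overexpression table. Hoxa7 was not called either, between 1.55 and 3.77 and between 0.616 and 4.23.

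During induction with DMSO, Hoxa3, Hoxa4 and Hoxc12 rose by day 2 while 2 genes of HoxD fell. The summed value of paralogues 1 to 4 was 4.6 and 5.0 in EpiLCs, 11.4 and 14.9 at day 2 and 4.7 and 4.2 at day 4. That of paralogues 9 to 13 was 14.2 and 13.4, then 11.7 and 12.8, then 23.2 and 21.6. Among these 3 groups the anterior sum was highest at day 2 and the posterior sum at day 4, but few genes carried much of them. Hoxa3 alone was at 6.04 and 7.46 at day 2. At day 4 Hoxc12 was at 5.58 and 4.68 and Hoxc13 at 6.44 and 6.47. The sums therefore do not show a change shared by all anterior or all posterior members. In bulk libraries, fewer cells that express a gene and less RNA per cell cannot be told apart.

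**Figure D2:**
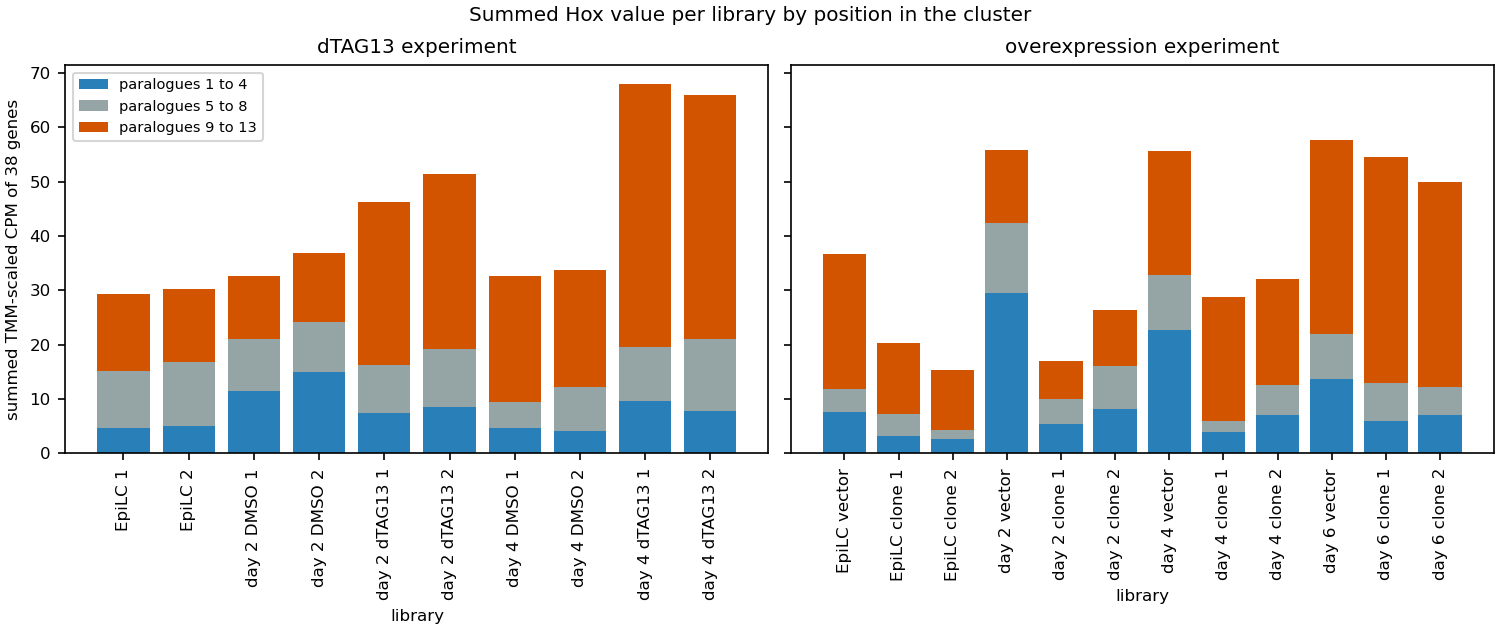
Summed TMM-scaled CPM of the 38 members in each library, stacked by paralogue number (blue 1 to 4, grey 5 to 8, orange 9 to 13). With dTAG13 the orange part is taller than with DMSO on both days. Hoxc13, which is in that part, made up 38.4% to 45.8% of the whole bar with dTAG13. In the vector line the blue part is tall at day 2 and day 4.

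From EpiLCs to day 2 with DMSO, 3 of 9 tested members were called higher, beside 11.5% of all 16605 genes, and 2 lower, beside 14.7%. A member is called at an adjusted p under 0.05 in limma, Benjamini-Hochberg adjusted across every gene tested, and a fold change is a difference of log2(value + 1).

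Hoxa3, a gene of pharyngeal arch and thymus development, went from 1.901 and 2.10 to 6.04 and 7.46. Its log2 fold change of 1.36 (SE 0.296, limma adjusted p = 0.00148) kept its call without any single library. Hoxa4, a gene of the neck region, went from 4 and 5 reads to 20 and 14 reads (0.507 and 0.554 to 2.52 and 1.9), a log2 fold change of 1.06 (limma adjusted p = 0.0171). Hoxa4 passed the filter only through the day 2 DMSO libraries, with a mean of 0.837 over the others. Without either EpiLC library its adjusted p in limma was 0.0878 or 0.0875, and without the filter 0.075.

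Hoxc12, a posterior gene beside Hoxc13, had 0 reads in both EpiLC libraries and 13 and 12 at day 2. The day 2 level was at least 4.6-fold higher than a floor of 3 reads per EpiLC library (fitted log2 fold change 1.40, limma adjusted p = 0.00235, a value that depends on the pseudocount). At day 4 it had 52 and 47 reads, and its values of 5.58 and 4.68 were above 1.64 and 1.63 at day 2 (log2 fold change 1.22, limma adjusted p = 0.0256). That second step was lost without any 1 of its 4 libraries, with adjusted p in limma between 0.0732 and 0.139.

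Hoxd8 fell from 26 and 27 reads in EpiLCs (3.29 and 2.99) to 1 read in each day 2 library. The ratio of the summed levels was 24.0 with an exact 95% counting interval of 6.32 to 203, which covers counting error only, and the fitted log2 change was -1.87 (limma adjusted p = 0.000133). Hoxd8 passed the filter only through the EpiLC libraries, with a mean of 0.5 over the others, and fell under it when either of them was left out. With no filter its adjusted p in limma was 0.00238. Hoxd13, the most 5′ gene of HoxD and a gene of digits and genitalia, went from 2.92 and 2.77 to 0.629 and 1.09. It was lower in both day 2 libraries, by -1.06 (limma adjusted p = 0.0153), and without either EpiLC library or the first day 2 library the adjusted p in limma was 0.082 to 0.133.

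From day 2 to day 4 with DMSO, 1 of 9 tested members was called higher, beside 2.44% of all genes, and 2 lower, beside 3.08%. Hoxa3 went down to 2.79 and 2.39, a log2 change of -1.11 (limma adjusted p = 0.0284). Hoxa5, a gene of lung and axial patterning, went from 5.28 and 4.89 to 0.967 and 2.39, a change of -1.24 (limma adjusted p = 0.0221). Both day 4 libraries were below both day 2 libraries for each gene. The Hoxa3 call was lost without any 1 of the 4 libraries, with adjusted p in limma between 0.0556 and 0.224, and the Hoxa5 call without 3 of them, between 0.108 and 0.184. Both steps, and the dTAG13 comparison at day 2, rest on the same day 2 DMSO libraries, so they are not independent of each other.

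In the overexpression table the stage steps were fitted over the vector line and both clones, with line as a covariate. From EpiLCs to day 2, 4 of 10 tested members were called higher, beside 24.1% of all 15255 genes, and 1 lower, beside 22.1%. The 4 were Hoxa3, Hoxa4, Hoxa5 and Hoxb2, and each was higher at day 2 in 3 of 3 lines.

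In the vector line, clone 1 and clone 2, Hoxa5 had 0, 3 and 0 reads in EpiLCs and 47, 16 and 25 at day 2, a ratio of summed levels of 30.2 with an exact 95% counting interval of 9.9999 to 149. Its fitted log2 fold change was 2.16 (limma adjusted p = 4.65e-06), and it passed the filter only through day 2, with a mean of 0.783 over the other stages (without the filter, limma adjusted p = 0.00035). Hoxa3 went from 0.901, 0.149 and 0.137 to 10.1, 2.46 and 2.27, a log2 fold change of 1.89 (limma adjusted p = 1.25e-05). Hoxb2, a hindbrain gene, rose by 1.05 (limma adjusted p = 0.00751). Hoxa4 had 1 read over the 3 EpiLC libraries and 39 over those of day 2, a ratio of 40.1 with an interval of 6.79 to 1626. Hoxd13 fell from 12.6, 4.92 and 6.32 to 3.59, 2.00 and 3.03, a change of -1.14 (limma adjusted p = 0.00295), and was lower in 3 of 3 lines.

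From day 2 to day 4 in these lines, 1 of 10 members was called higher, beside 11.1% of all genes, and 1 lower, beside 11.9%. Hoxc13 went from 4.45, 2.62 and 2.88 to 7.97, 11.03 and 8.40, a log2 fold change of 1.24 (limma adjusted p = 0.000356). All day 4 values were above all day 2 values. Hoxa5 fell by -1.42 on the log2 scale (limma adjusted p = 0.00244), to 1.99, 0.167 and 0.933, and was lower in 3 of 3 lines. Without the filter, which Hoxa5 passed only through day 2, its adjusted p in limma was 0.02.

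From day 4 to day 6, 0 of 10 members were called by limma in either direction, beside 3.49% of all genes called higher and 3.38% lower. At an unadjusted p under 0.05 there were 2, Hoxc12 and Hoxc13, and edgeR on recovered reads called 1 and DESeq2 0. Hoxc13 was at 13.7, 16.9 and 17.8 at day 6, each above day 4 in its line (log2 difference 0.76, limma adjusted p = 0.0548). Hoxc12 was at 2.11, 6.35 and 3.79 against 1.53, 1.17 and 1.31 at day 4 (log2 difference 1.04, limma adjusted p = 0.0516).

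Under dTAG13 the member with the highest level, Hoxc13, was higher than with DMSO on both days. The summed Hox value was 46.2 and 51.4 at day 2 against 32.7 and 36.9 with DMSO, and 68.0 and 65.9 at day 4 against 32.8 and 33.8. Hoxc13 made up 38.4% to 45.8% of that sum with dTAG13 and at most 19.7% with DMSO on the same days. Without it the sums at day 2 were 26.9 and 30.6 against 28.5 and 32.8, which overlap, and at day 4 41.9 and 35.8 against 26.3 and 27.3.

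At day 2, 1 of 9 tested members was called higher with dTAG13, beside 13.7% of all genes, and 1 lower, beside 19.9%. Hoxc13 was at 19.3 and 20.7 with dTAG13 and at 4.15 and 4.07 with DMSO. Its log2 fold change was 2.04 (SE 0.225, limma adjusted p = 4.74e-07), and the groups were far apart. Hoxa3 was at 2.02 and 3.48 against 6.04 and 7.46, both lower, by -1.07 on the log2 scale (limma adjusted p = 0.00779). Without the second DMSO or the first dTAG13 library the adjusted p of Hoxa3 in limma was 0.0755 or 0.0998.

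At day 4, 2 of 9 tested members were called higher, beside 15.8% of all genes, and 1 lower, beside 26%. Hoxc13 was at 26.1 and 30.2 against 6.44 and 6.47, a log2 fold change of 1.96 (SE 0.225, limma adjusted p = 3.93e-07). The lower dTAG13 library of Hoxc13 was above its higher DMSO library on each day, and no single library or other setting ended these calls.

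Hoxa5 was at 2.93 and 4.61 with dTAG13 and at 0.967 and 2.39 with DMSO at day 4, which is 20 and 29 reads against 9 and 24 (log2 fold change 0.86, limma adjusted p = 0.0341). Without the first DMSO library it was 0.47 with an adjusted p of 0.345 in limma, and without the second dTAG13 library 0.61 with 0.244. Hoxc12 was at 3.23 and 1.59 against 5.58 and 4.68, a log2 change of -0.89 (limma adjusted p = 0.0306). Both dTAG13 libraries were lower, but without either DMSO library or the second dTAG13 library the adjusted p of Hoxc12 in limma was 0.0608 to 0.289, and edgeR and DESeq2 on reads did not call it (0.084 and 0.238). Hoxc11, under the filter and next to Hoxc12, had 9 and 4 reads with dTAG13 and 25 and 16 with DMSO.

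**Figure D3:**
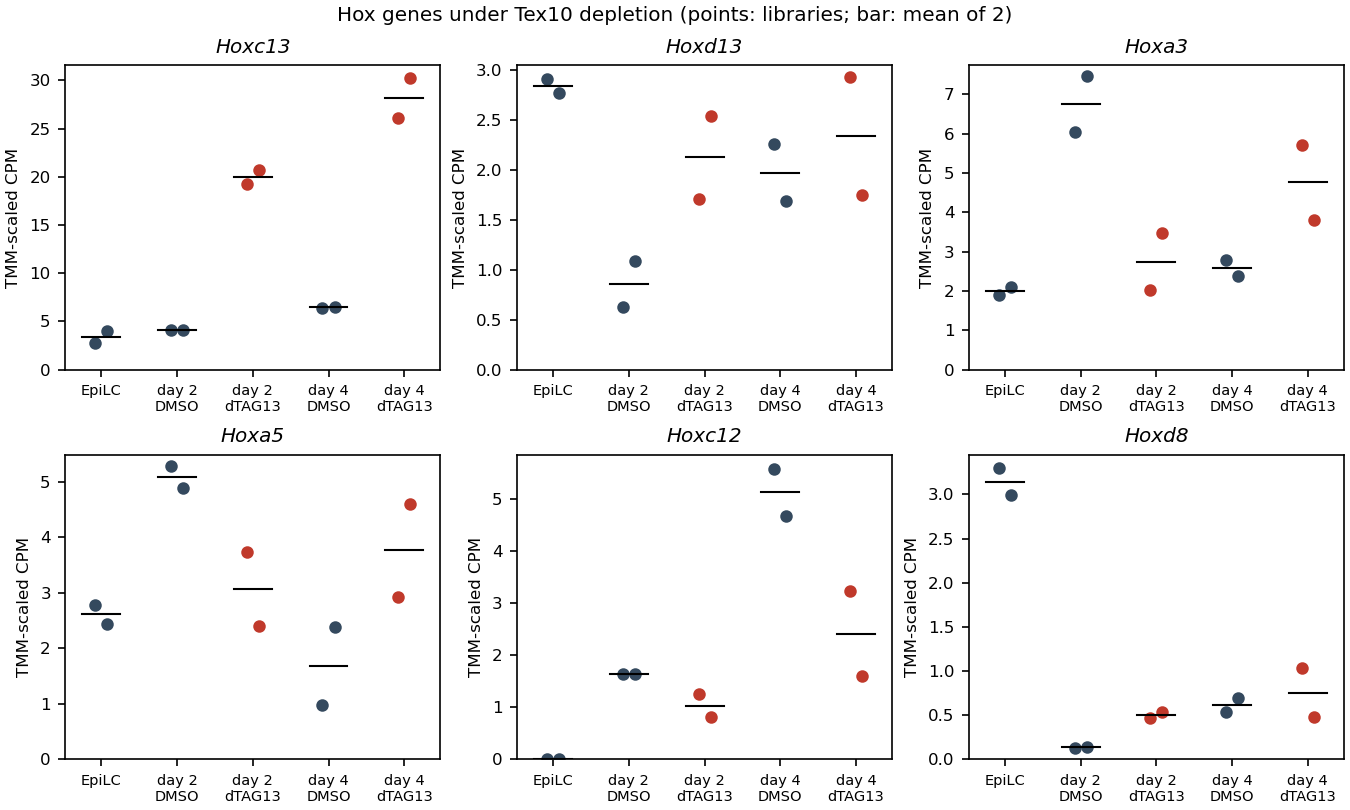
TMM-scaled CPM of 6 members in each library of the dTAG13 experiment (points, red with dTAG13) with the mean of 2 libraries (bar); axes start at 0 and differ in scale. Hoxc13 is above DMSO on both days, and Hoxa3 is below it at day 2 and above it at day 4.

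The difference between the dTAG13 effects of the 2 days was called for 1 of 9 members, beside 0.771% of all genes called with a larger effect at day 4 and 0.482% with a smaller one. It was Hoxa3, whose dTAG13 values went from below those with DMSO at day 2 to 5.72 and 3.81 against 2.79 and 2.39 at day 4. The difference of effects was 1.73 on the log2 scale (SE 0.419, limma adjusted p = 0.0403). It was lost without any 1 of 6 of the 8 libraries, with adjusted p in limma between 0.0708 and 0.197. At day 4 alone Hoxa3 was not called (0.67, limma adjusted p = 0.0764). For Hoxa5 the difference between days was 1.46 (limma adjusted p = 0.135) and for Hoxc13 -0.08 (limma adjusted p = 0.956).

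With dTAG13, calls over all genes leaned to lower values, with higher genes making up 40.7% of those called at day 2 and 37.8% at day 4. With median-ratio scaling these shares were 52% and 49.2%, and the median of all genes moved by 0.08 and 0.1. Hoxc13 was called higher on both days under that scaling too. Genes of chromosome 6, which carries HoxA, had a median log2 change of -0.34 at day 2 against -0.07 on the other autosomes, and -0.24 against -0.12 at day 4. The 25 tested genes within 2 Mb of HoxA had medians of -0.05 and 0.17, with 4 higher and 8 lower at day 2 and 6 higher and 7 lower at day 4. Near HoxC, 46 tested genes had medians of -0.21 and -0.25.

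Known regulators were read beside these values. Of the 3 germ cell repressors of the somatic programme, Prdm1 and Prdm14 were called lower and Tfap2c higher with dTAG13 on both days. Prdm1 was at 20.7 and 22.7 against 51.2 and 46.4 at day 2, and at 16.4 and 10.97 against 49.8 and 39.4 at day 4. Of 22 tested Polycomb subunits, 2 were higher and 8 lower at day 2, and 2 higher and 8 lower at day 4, where 19.9% and 26% of all genes were called lower. Ezh2, the H3K27 methyltransferase, changed by -0.85 (limma adjusted p = 1.56e-05) at day 2 and -0.91 (limma adjusted p = 3.35e-06) at day 4. Of 8 tested TALE cofactors, 4 were lower on each day, and 1 was higher, Meis1 at day 2 and Pknox2 at day 4. Meis2 was at 26.9 and 29.8 against 62.6 and 53.5 at day 2.

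Of 7 tested Hox activators of the posterior epiblast, 1 was higher and 1 lower at day 2, and 3 higher and 1 lower at day 4. Cdx2 was at 1.47 and 2.38 with dTAG13 at day 4 and at 0.32 and 0.60 with DMSO (log2 fold change 0.99, limma adjusted p = 0.0143). Brachyury, listed as T, and Msgn1 were near 0 with and without dTAG13, at most 0.78 and 0.11 in any of these 8 libraries.

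Of 12 mesoderm and primitive streak markers, 4 passed the filter, and Hand1 and Snai1 were called higher on both days while Eomes and Fgf8 were not called. The summed value of the 12 was 36.8 and 46.7 against 14.7 and 15.7 at day 2 and 35.8 and 42.75 against 17.4 and 18.5 at day 4. Hand1 made up much of it, at 22.4 and 31.6 against 4.28 and 7.33 at day 2 and at 15.7 and 24.5 against 2.04 and 2.79 at day 4. Of 6 markers of extraembryonic mesoderm 5 passed, with 2 higher and 1 lower at day 2 and 4 higher and 1 lower at day 4. Their summed value was 1899 and 2342 against 415.5 and 457.6 at day 2, and 1948 and 2479 against 474.2 and 485.9 at day 4. Nearly all of that sum was Ahnak, a large scaffold protein, at 1854 and 2300 against 377.3 and 423.6 at day 2. Bmp4, a ligand of germ cell induction, was the lower one, at 16.3 and 11.1 against 31.4 and 24.4. The part of these cells and regulators in the Hox values was not tested.

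Reads of antisense genes could enter some members, since the strand setting of the counting is not given in the sources used here. Exons of 9 of the 38 members share bases with an opposite-strand gene. Hoxa3 shares at most 2011 of its 6014 exon bases with other genes, among them Hoxaas2 and Hoxaas3. Reads within the shared bases cannot be told apart from those of these genes. Hoxc13 shares none.

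In the overexpression experiment 3 anterior members, Hoxa3, Hoxb2 and Hoxb1, were lower in the Tex10 clones than in the vector line, and no reported member was called higher. The comparison used all 4 stages with stage as a covariate, so stages stand in for replicates of the vector line. Of 10 tested members, 3 were called lower, beside 4.22% of all genes, and 0 higher, beside 4.54%. Among the 3, Hoxb1 and Hoxb2 passed the filter only through the vector line, with means of 0.653 and 0.754 over the clones, so their count is no support. Without the filter Hoxb2 was still called (limma adjusted p = 0.0072) and Hoxb1 was not. With 1 vector line, the effect of Tex10 and a difference between lines cannot be told apart.

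Hoxa3 in EpiLCs and at days 2, 4 and 6 was at 0.901, 10.1, 6.90 and 5.57 in the vector line. It was at 0.149, 2.46, 1.17 and 0.163 in clone 1, and at 0.137, 2.27, 2.24 and 1.75 in clone 2. Both clones were below the vector line at every stage, lower in 8 of 8 clone libraries, with a log2 change of -1.48 (SE 0.239, limma adjusted p = 0.00011). In EpiLCs these values are 6 reads against 1 and 1.

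Hoxb2 was at 1.35, 7.18, 4.90 and 2.26 in the vector line, at 0.298, 0.770, 0.501 and 0.977 in clone 1 and at 0.275, 1.36, 1.12 and 0.728 in clone 2. It was lower in 8 of 8 clone libraries, by -1.35 (SE 0.233, limma adjusted p = 0.000233). The calls of Hoxa3 and Hoxb2 were kept without either clone.

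Hoxb1, a marker of one hindbrain segment whose window is shown above, had 20, 34, 22 and 1 reads in the vector line. It had 8, 3, 1 and 0 reads in clone 1 and 3, 14, 0 and 6 in clone 2. It was lower in 7 of 8 clone libraries, the exception being clone 2 at day 6, with a log2 change of -1.10 (SE 0.29, limma adjusted p = 0.0146), and without clone 1 the change was -0.96 with an adjusted p of 0.146 in limma. Without the variance trend, without the filter or with DESeq2 on recovered reads Hoxb1 was not called either (adjusted p 0.125 and 0.0973 in limma and 0.192 in DESeq2).

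**Figure D4:**
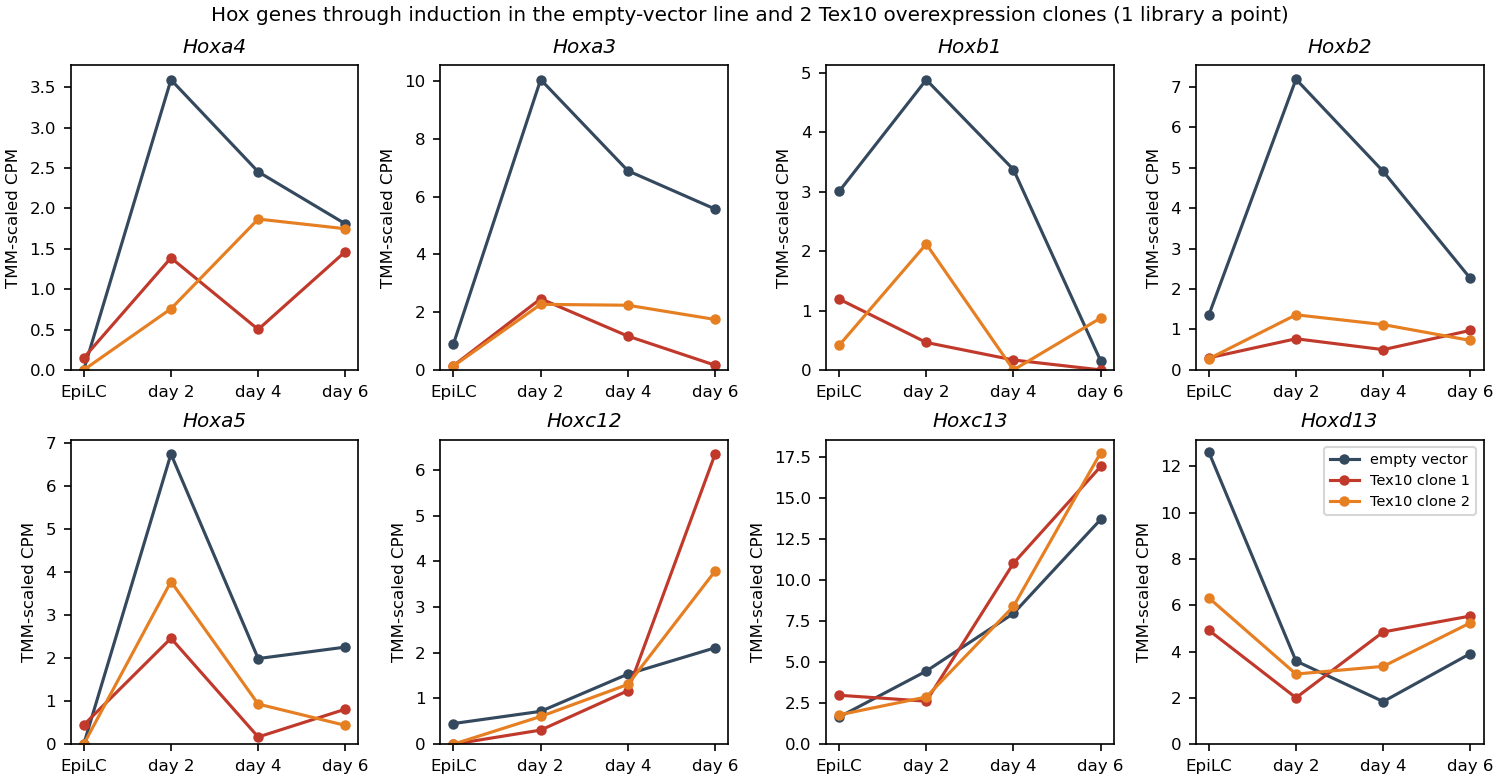
TMM-scaled CPM of 8 members at each stage in the vector line (dark) and the Tex10 overexpression clones (red and orange), 1 library a point; axes start at 0 and differ in scale. Hoxa3 and Hoxb2 lie below the vector line at every stage, while Hoxc13 climbs in all 3 lines.

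No posterior member was called in this comparison, and the difference between anterior and posterior members was not tested. Hoxc13 in the clones lay on both sides of the vector line (0.09, SE 0.18, limma adjusted p = 0.826), as did Hoxd13 (-0.06, SE 0.223, limma adjusted p = 0.912). Hoxc12 differed by -0.01 (SE 0.24, limma adjusted p = 0.99). Hoxa5 was lower in 6 of 8 clone libraries and was not called (-0.67, limma adjusted p = 0.0914). Summed over paralogues 1 to 4, the vector line was at 29.6 at day 2 and 22.7 at day 4, against 5.5 and 8.2 and then 4.0 and 7.1 in the clones. Over paralogues 9 to 13, the vector line was at 13.4 at day 2, against 6.9 and 10.3 in the clones. At day 4 it was at 22.8, against 22.7 and 19.6. Both clones were below the vector line in EpiLCs too. Only at day 6 were the clones above it, at 41.7 and 37.7 against 35.7.

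Prdm1, Prdm14 and Tfap2c were not called in this comparison, with log2 differences between -0.13 and 0.02. Of 6 tested mesoderm markers 2 were lower, and Hand1, a factor of lateral and extraembryonic mesoderm, was at 15.9 in the vector line at day 4 and at 3.68 and 2.80 in the clones. Brachyury was at 6.59 in that library and at 0.84 and 1.49 in the clones. Of 8 tested TALE cofactors 1 was lower, and of 22 Polycomb subunits 1 was higher and 3 lower. The part of mesoderm-like cells in the anterior Hox values of the vector line was not tested. Values are not compared between the dTAG13 and overexpression tables, which were scaled separately and made with different library kits.

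Testis had other leading members. Per kilobase of exon, mean levels were 53.3 for Hoxa4, which is known to be transcribed in male germ cells, 26.3 for Hoxd8, 4.19 for Hoxd9 and 3.31 for Hoxb3. Of the 17 members listed 15 passed the filter, beside 20658 of all 21275 genes. The others were Hoxc5, with 4 to 8 reads, and Hoxc10, with 15 and 8 reads in cKO and 1 and 0 in wildtype. Without the filter Hoxc10 was called higher (log2 fold change 1.21, limma adjusted p = 0.0283). All listed members together had 1384 to 1533 reads per library.

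In cKO against wildtype testis, 3 of 15 tested members were called higher, beside 16.1% of all 20658 genes, and 1 lower, beside 13.1%. Hoxa4 was at 56.8 and 73.2 in cKO and at 114.0 and 95.6 in wildtype, both lower (log2 change -0.69, SE 0.149, limma adjusted p = 0.004). Its call was kept without any single library, but without the variance trend its adjusted p in limma was 0.0829 and no member was called. Hoxd8, the other highly read member, was at 74.4 and 69.4 against 65.4 and 79.4, which overlap (0.00, SE 0.138, limma adjusted p = 0.986). Hoxb3 was at 12.4 and 10.4 against 16.4 and 17.1, below wildtype in both libraries but not called (limma adjusted p = 0.0837).

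The 3 higher members are central and posterior genes read at low counts. Hoxc6 and Hoxc8 passed the filter only through the cKO libraries, with means of 0.406 and 0.592 in wildtype, so their count is no support. Hoxc6 had 37 and 14 reads in cKO and 2 and 3 in wildtype, a ratio of summed levels of 8.28 with an exact 95% counting interval of 3.32 to 26.6 (log2 fold change 1.56, limma adjusted p = 0.0122). Hoxc8 had 32 and 15 reads against 6 and 1, a ratio of 5.45 with an interval of 2.45 to 14.3 (log2 fold change 1.38, limma adjusted p = 0.024). Hoxd9 was at 15.2 and 8.64 against 5.82 and 6.12 (log2 fold change 0.84, limma adjusted p = 0.0426). For each of the 3 the first cKO library was the higher. Without it Hoxc8 and Hoxd9 were not called, at 0.92 and 0.47 with adjusted p in limma of 0.264 and 0.452. Hoxc8 was also lost without the second wildtype library (limma adjusted p = 0.111) and Hoxd9 without the first (limma adjusted p = 0.0634).

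**Figure D5:**
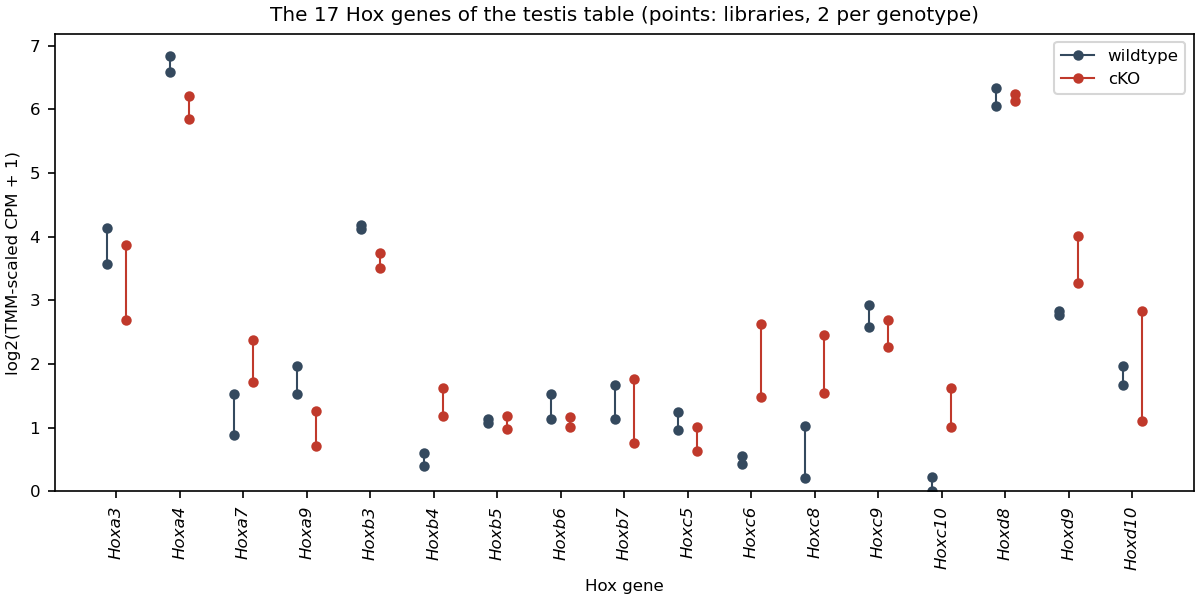
Log2(TMM-scaled CPM + 1) of the 17 members listed in the testis table, for the 2 wildtype (dark) and 2 cKO (red) libraries, each pair joined by a line. Hoxa4 is lower in both cKO libraries, and Hoxc6, Hoxc8 and Hoxd9 are higher, most in 1 of them.

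Markers of testis cell types also differed between cKO and wildtype. The 7 Sertoli cell markers were all called higher in cKO, with summed values of 1415 and 1206 against 472.4 and 418.1, and so were the 5 Leydig cell markers. Of 7 markers of peritubular and interstitial mesenchyme 6 were higher, at 156.7 and 119.6 against 45.4 and 42.1. Of 6 spermatid markers 5 were lower, at 12540 and 13040 against 17020 and 19420. Among 7 antisense and host RNAs of the clusters, 1 was called, Hoxd3os1, at 99.7 and 92.3 in cKO against 124.1 and 135.6 (-0.43, limma adjusted p = 0.0172). The part of cell composition in the Hox values was not tested.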

How the data were processed

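Trizol was used to extract RNA, and libraries were made with a NuGEN Ovation mouse kit for the dTAG13 and testis experiments and a Tecan Universal Plus mRNA kit for overexpression, per the labels' protocols and the series' design. The submitters' processing notes name mm10, Bowtie2 2.3.4.3, SAMtools 1.9, HTSeq 0.11.2 and edgeR 3.26.8, with no roles. The annotation and strand setting are not given in the sources used here. The authors deposited a signal per gene and sample, scaled by TMM per the table names. Dividing by the value of 1 read gave whole numbers in each library (100.0% within 0.1 reads), so reads were recovered. In 1 library, day 4 DMSO replicate 2, the step is near 0.1 and rounding could give the same pattern.

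Values were tested with limma 3.58.1 (R 4.3.3, variance trend) on log2(value + 1), over genes with a mean of at least 1 and all libraries of a table, in 10 comparisons, each adjusted by the Benjamini-Hochberg method. Adjusted p-values in the text are from limma unless named otherwise. edgeR 4.0.16 and DESeq2 1.42.0 on recovered reads were alternatives, beside another pseudocount (0.25), no filter, median-ratio scaling, no trend, an added log2 fold threshold of 1, a replicate block and leaving out libraries. The fit was tested on simulated data. Named members are those called with the largest changes, up to 6 a direction, the highest 6 of each table, and those under the filter with at least 10 reads. The members and lists were chosen with earlier results of these data known. Exon lengths are from GENCODE M21. The authors' own fold changes were not used. A gene that the rule takes is not reported here and is in no count or sum of members.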

Additional observations from a re-analysis of the deposited data

Results flagged for a closer look

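The dTAG13 effect on Hoxa3 differed between day 2 and day 4 by 1.73 on the log2 scale, in the test of that difference itself (limma adjusted p = 0.0403). The effect was -1.07 at day 2 and 0.67 at day 4, where it was not called. The alternatives gave adjusted p between 0.0386 and 0.22 for Hoxa3, and 10 of 15 were above the threshold.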

How the results depend on the processing

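Over 28 called member results and 308 alternatives, no direction reversed, 240 were still called and 68 were not. The calls of Hoxc13 with dTAG13, on both days, and of Hoxa3 and Hoxb2 in the overexpression clones were kept in every alternative run. Counts of called members moved by over 1.5 times in these cases. Without the filter the count fell to 0 for day 2 to day 4 with DMSO, and rose to 1 for day 4 to day 6, as it did with edgeR. With DESeq2 it was 3 for EpiLC to day 2 with DMSO and 1 for dTAG13 at day 2. For dTAG13 at day 4 it was 1 with DESeq2, 1 with the added threshold and 5 without the trend. The difference between days fell to 0 with a pseudocount of 0.25, no filter, no trend and DESeq2. Testis gave 0 without the trend, 1 with DESeq2 and 2 with the added threshold. The cause was not tested. Leaving out the filter changed both the number of genes tested and the members among them.

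In the dTAG13 and testis data, leaving out a library changed the count of called members in every comparison, for at least 1 choice of library. Each of these fits left a group with 1 library, so the counts are not printed. For overexpression a whole line was left out at all its stages, and never a single library. Leaving out a line gave 3 to 5 called members for EpiLC to day 2 and 0 to 1 for day 4 to day 6. Where an arm was left with 1 library, that library is assumed to vary like the other groups. Same-numbered libraries are not known to be paired: their deviations correlated between -0.069 and 0.118. When the fit held a replicate block, the difference between days gave 0 called members (Hoxa3 adjusted p 0.0524 in limma), and the other counts stayed within 1.5 times. In the overexpression table the stage steps were already paired within lines by the line covariate. The clones were matched to the vector line by stage, through the stage covariate, but the vector line has only 1 library per stage. Low counts limit most members: 29 of 38 in the dTAG13 table were left out by the filter.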
